A study of Mus musculus with 10 samples.

Results

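The second of 2 hairpins against Slpi, shSlpi-2, was compared with the control hairpin against Renilla luciferase, shRenilla, in clone 4T1-T, which was grown from a single cell of the mouse mammary carcinoma line 4T1. The members are the 4 samples whose titles carry these names, shSlpi-2 A and B and shRenilla A and B, out of 10 RNA-sequencing samples in all. The other libraries of the series carry the first Slpi hairpin (shSlpi-1) or 1 of 2 Serpine2 hairpins, with 2 libraries each. All groups share the clone, infection with a hairpin and a medium that holds fetal bovine serum and fetal calf serum, and each result is therefore about 1 clone in culture, with a hairpin-carrying line as the control. The labels do not state whether A and B are 2 cultures or 1. A p-value here therefore reflects the scatter between libraries of a group, which may be technical. Unless stated, that scatter is pooled over all 10 libraries. Depth was 20192685 and 20288389 reads in shSlpi-2, against 17233255 and 16686493 reads in shRenilla.

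Slpi, secretory leukocyte protease inhibitor, is a small secreted protein with WAP domains that blocks neutrophil elastase and related serine proteases. It is made by many epithelia and by mammary tumour cells, including the 4T1 line. A short hairpin RNA is processed into a guide that lowers the messenger RNA it pairs with, and a single hairpin can also lower transcripts other than its target, so a second hairpin against the same gene is the usual companion. Values below are normalized read counts, and fold changes are on the log2(count + 1) scale with their standard error (SE). Rose, fell and changed are used for genes with a limma adjusted p under 0.05 over all 12299 genes tested.

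Slpi (GRCm38 chromosome 2, 164354070 to 164389095, minus strand) had 60.9 and 75.8 normalized reads in shSlpi-2, against 1189 and 1313 in shRenilla. The groups lie far apart, with means of 68.3 ± 10.5 in shSlpi-2 and 1251 ± 87.6 in shRenilla (SD, n = 2 each), an 18.3-fold lower level (log2 fold change -4.18, SE 0.12, limma adjusted p = 3.59e-13). The first hairpin left more of it, at 145 and 147 normalized reads in shSlpi-1, and shSlpi-2 was lower than shSlpi-1 by -1.09 on the log2 scale. The shSlpi-2 line was chosen as the one with the lowest Slpi. Its Slpi values therefore check the labels and are not a separate result. Serpine2, the other secreted protease inhibitor the series targets, was lower as well, at 1553 and 1731 in shSlpi-2 against 3256 and 3145 in shRenilla (log2 fold change -0.96, SE 0.07, limma adjusted p = 4.05e-08). The enzymes that Slpi is known to inhibit were at or near 0 in this line. Elane, neutrophil elastase, had 2.90 and 0.947 normalized reads in shSlpi-2 and was listed at 0 in both shRenilla libraries, and Ctsg, cathepsin G, had 1.93 and 0 in shSlpi-2 and 0 in both shRenilla libraries.

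The shSlpi-2 libraries stood apart from the rest in their make-up. Rn45s, the ribosomal RNA precursor, took 6.88% and 6.91% of reads in shSlpi-2, against 1.00% and 1.21% in shRenilla, and 0.881% to 1.96% in the other 6 libraries. Reads counted for Lars2, the gene of a mitochondrial leucyl-tRNA synthetase, moved with Rn45s, at 73541 and 86522 in shSlpi-2 against 5977 and 7201 in shRenilla (log2 fold change 3.60). Whether these reads come from Lars2 messenger RNA was not tested. An alternative given below leaves Lars2 out of the library total together with Rn45s. Malat1, a nuclear long noncoding RNA, had 160839 and 152298 in shSlpi-2 against 265744 and 283104 in shRenilla (log2 fold change -0.81). It was near the shSlpi-2 level in shSerpine2-2 as well, at 163844 and 163182, so Malat1 did not set shSlpi-2 apart. Reads also lay on families of sensory receptor genes. Of 1488 olfactory, vomeronasal and taste receptor genes, 47.4% and 50.5% had at least 1 read in shSlpi-2, against 8.60% and 8.74% in shRenilla. The share was also above shRenilla in shSlpi-1 (28.4% and 23.1%) and shSerpine2-1 (24.1% and 23.6%), and not in shSerpine2-2 (5.91% and 6.25%). Normalized reads per kb of exon over the receptor genes were 0.301 and 0.343 in shSlpi-2 against 0.0988 and 0.0997 in shRenilla. These values hold 10 receptor genes that reached the mean of 10 normalized reads and were tested, of which 3 fell in shSlpi-2, with a median log2 fold change of -0.45 over the 10. Of 6312 genes without a read in either shRenilla library, 53.7% and 56.7% had one in the shSlpi-2 libraries. That share was 35.3% and 31.0% in shSlpi-1, 30.9% and 29.0% in shSerpine2-1 and 7.65% and 9.49% in shSerpine2-2. These genes were chosen for their lack of reads in shRenilla, so the share cannot be compared with shRenilla. The 2 shSlpi-2 libraries also differed more from each other than any other pair, with a chi-square of 9.66 per degree of freedom over genes, against 2.43 for shRenilla and 1.51 to 2.64 for the other pairs. The part of these differences in the results below was not tested, beyond the values given beside them.

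**Figure D1:**
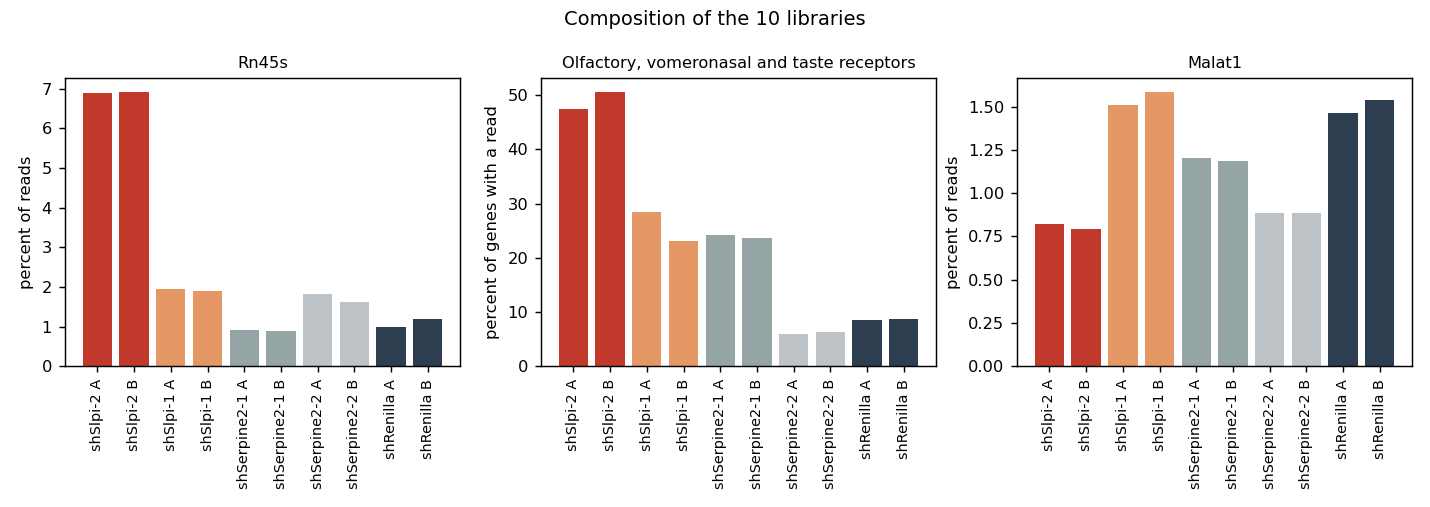
Share of reads on Rn45s (left, percent of reads), share of 1488 receptor genes with at least 1 read (middle, percent of genes) and share of reads on Malat1 (right, percent of reads), 1 bar per library. The shSlpi-2 libraries reach 6.88% and 6.91% for Rn45s and 47.4% and 50.5% for the receptors, above the 8 other libraries in both panels.

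With shSlpi-2, 2512 genes rose and 2698 fell, which is 20.4% and 21.9% of all genes tested. Most changes were small, with a median of 1.31-fold among changed genes, and 127 rose and 185 fell by at least 1 on the log2 scale. The median of all genes was -0.01. When the spread was estimated from the 4 compared libraries alone, 1916 rose and 2036 fell, and 3947 of the 5210 changed genes passed again with the same sign. In a fit with 1 weight per group, lowest for shSlpi-2 at 0.433, 2004 rose and 2140 fell.

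The genes named next are those with the largest fold changes under the naming rule, which takes only genes whose shSlpi-2 and shRenilla libraries do not overlap. Muc4, a membrane-bound mucin of epithelial surfaces, had 111 and 113 normalized reads in shSlpi-2, against 3.16 and 11.02 in shRenilla (log2 fold change 4.00, SE 0.44, limma adjusted p = 2.81e-06). Library A of shRenilla was at the limit of 3 reads that a count of 0 allows, 3.16 normalized reads there, so the size of the fold is loose. Krt14, a keratin of basal and myoepithelial cells, had 544 and 471 in shSlpi-2 against 115 and 120.1 in shRenilla (log2 fold change 2.10, SE 0.12, limma adjusted p = 1.48e-09). Itgb6, the integrin chain that pairs with the alpha v chain on epithelial cells and activates latent TGF-beta, had 372 and 364 in shSlpi-2 against 133 and 138 in shRenilla (log2 fold change 1.44). Wnt7a, a secreted Wnt ligand, had 379 and 361 in shSlpi-2 against 159 and 125 in shRenilla (log2 fold change 1.39). Moxd1, a copper-dependent monooxygenase of the endoplasmic reticulum, had 1314 and 1196 against 520.4 and 485 in shRenilla (1.32). Timm8a1, which guides proteins into the mitochondrial inner membrane, had 1626 and 1672 against 681 and 651 in shRenilla (1.31). Sap30, a subunit of a histone deacetylase complex, had 564 and 487 against 218 and 215 in shRenilla (1.27). The log2 fold changes were 1.29 for Slco5a1, a member of the organic anion transporter family, 1.25 for Frmd4b, a scaffold of cell polarity, and 1.22 for Ctsw, a cathepsin of cytotoxic lymphocytes. Mir5109, an entry for a microRNA gene, had 183 and 211 in shSlpi-2 against 78.0 and 76.0 in shRenilla (1.34). Its reads come from fragments of about 200 bp and do not measure a mature microRNA.

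Among the genes that fell, several encode secreted signals. Tslp, an epithelial cytokine that acts on dendritic and other immune cells, had 252 and 334 normalized reads in shSlpi-2, against 1532 and 1582 in shRenilla (log2 fold change -2.42, SE 0.10, limma adjusted p = 4.23e-11). Cck, the peptide hormone cholecystokinin, had 51.2 and 63.4 against 253 and 302 in shRenilla (-2.26). Il11, an interleukin of the IL-6 family, had 18.4 and 22.7 against 78.0 and 93.7 in shRenilla (-2.01). Angpt1, the ligand of the endothelial receptor Tie2, had 78.3 and 89.95 in shSlpi-2 against 297 and 306 in shRenilla (-1.83, limma adjusted p = 3.53e-08). Prl3d2, a placental lactogen gene, had 12.6 and 12.3 against 82.2 and 97.0 in shRenilla (-2.75). It has near-identical neighbours, so that its reads could be split or shared among copies and the value is uncertain. Ace, the angiotensin-converting enzyme, had 15.5 and 32.2 in shSlpi-2 against 134 and 149 in shRenilla (-2.60, SE 0.31). Egr1, a growth-factor-induced transcription factor, had 252 and 281 against 902 and 910.1 in shRenilla (-1.76, limma adjusted p = 1.17e-09). Man1c1, a Golgi mannosidase, had 50.3 and 46.4 against 197 and 217 in shRenilla (-2.08). Add2, an adducin of the membrane skeleton, had 29.96 and 26.5 against 98.0 and 95.9 in shRenilla (-1.75).

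**Figure D2:**
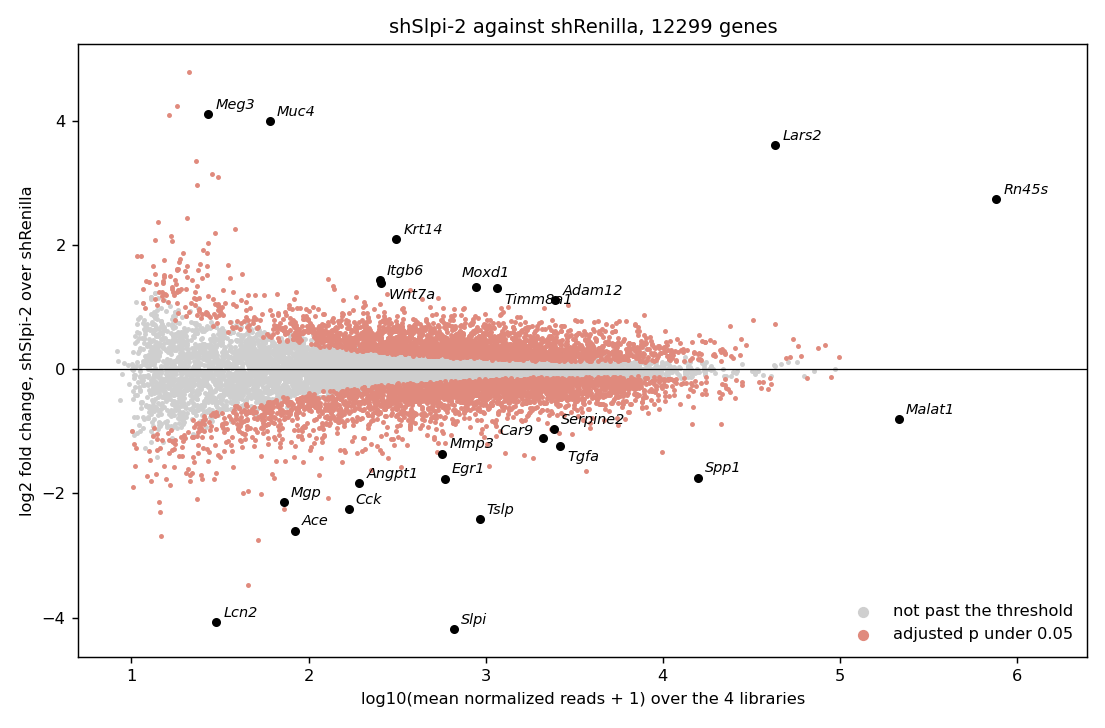
Log2 fold change of shSlpi-2 over shRenilla (y axis) against the log10 mean of normalized reads over the 4 libraries (x axis) for 12299 genes, red where the adjusted p was under 0.05. Slpi lies at -4.18 and Tslp at -2.42, against a median of -0.01 over all genes.

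Gene lists are described by how many of their tested members passed, beside the 20.4% of all genes that rose and the 21.9% that fell. The lists, and some genes named beside the rule such as Cldn3, Lcn2 and Meg3, were chosen after values of these data had been seen. Of 43 tested genes of epithelial junctions and identity, 25 rose and 1 fell, with a median log2 fold change of 0.50 (2 fell without shSlpi-2 library A or without library B). Epcam, an adhesion molecule of epithelia and carcinomas, had 2159 and 2043 in shSlpi-2 against 1300 and 1313 in shRenilla (log2 fold change 0.68, limma adjusted p = 8.68e-08). Cgn, the tight junction protein cingulin, had 1027 and 928 against 538 and 573 in shRenilla (0.81). St14, the membrane serine protease matriptase, had 1133 and 1024 in shSlpi-2 against 614 and 610.4 in shRenilla (0.81). Cldn3 and Cldn4, claudins of tight junctions, rose as well. Cldn4 had 372 and 399.6 in shSlpi-2 against 157 and 175 in shRenilla (1.21), and Cldn3 had 618 and 866 against 339 and 322 in shRenilla (1.14). Cdh1, E-cadherin, had 12918 and 12698 against 9520 and 9155 in shRenilla (0.46). Elf3, an epithelial transcription factor, had 62.8 and 41.7 against 17.9 and 17.6 in shRenilla (1.48). Dsg2, a desmosomal cadherin, rose by 0.67. Epcam, Cdh1 and the simple keratin Krt18, which mark epithelial cells, were abundant in each of the 4 libraries, the lowest at 1300 for Epcam in shRenilla.

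Of 8 tested keratins, 6 rose and 0 fell by limma at an adjusted p under 0.05, with a median of 0.58. Krt7, a keratin of simple and glandular epithelium, had 4020 and 3783 in shSlpi-2 against 1991 and 1831 in shRenilla (log2 fold change 1.03, limma adjusted p = 1.24e-09). Krt19 had 859 and 877 against 557 and 579.6 in shRenilla (0.61), and Krt18 had 7048 and 7851 against 5494 and 5548 in shRenilla (0.43). Among 16 tested factors and markers of the mesenchymal state, 3 rose and 5 fell, which is 18.8% and 31.3%. The median was -0.01, so the members named next do not describe the list as a whole. Zeb2, a repressor of E-cadherin, had 3388 and 3653 in shSlpi-2 against 4760 and 5225 in shRenilla (-0.50). Pdgfra, a growth factor receptor of mesenchymal cells, had 564 and 436 against 896 and 873 in shRenilla (-0.83). Foxc2 (-0.61) and Tcf4 (-0.41), transcription factors linked to the mesenchymal state, fell too. Postn, the matrix protein periostin, went the other way, with 72.5 and 53.03 in shSlpi-2 against 14.7 and 9.92 in shRenilla (2.26, SE 0.37, limma adjusted p = 1.32e-04). Of 26 contractile actin, myosin and tropomyosin genes, 12 rose and 2 fell (4 fell without shSlpi-2 library B). Tpm1, a tropomyosin, had 19691 and 19094 against 13920 and 14410 in shRenilla (0.45), while Acta2, smooth muscle actin, had 32.9 and 29.4 against 60.1 and 61.7 in shRenilla (-0.95).

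**Figure D3:**
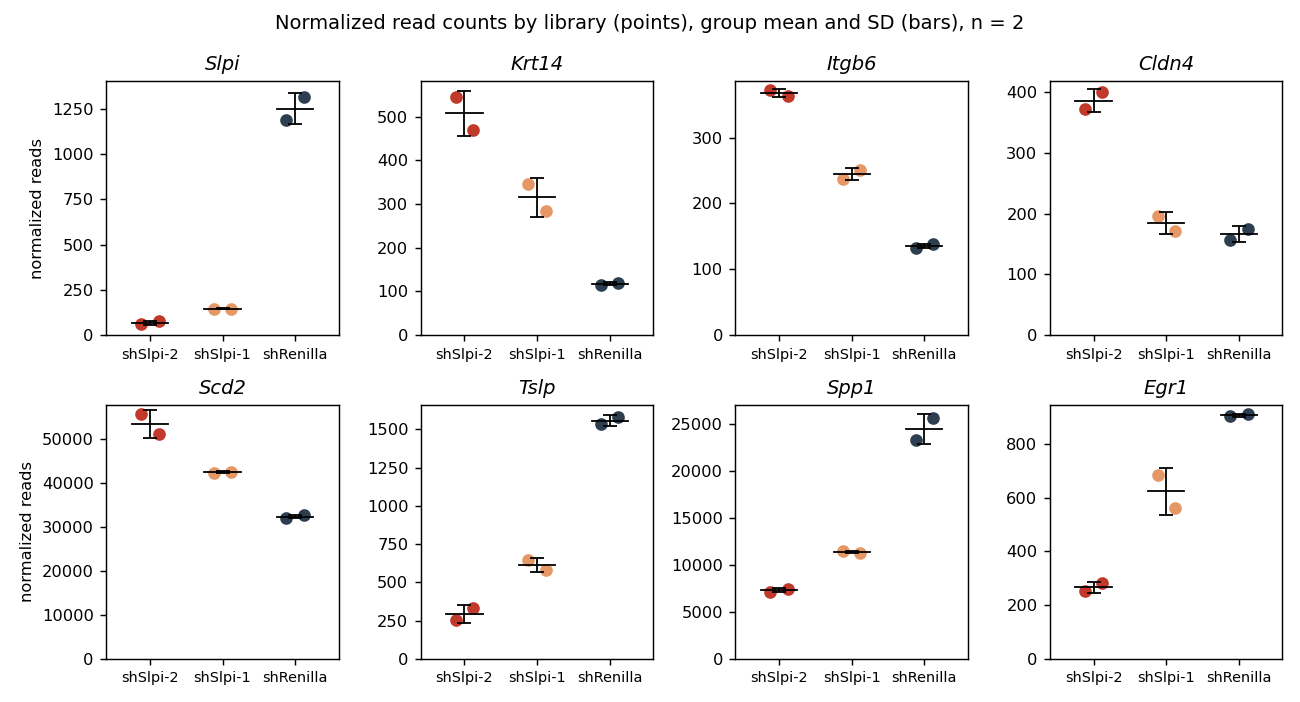
Normalized read counts (y axis, from 0) of 8 genes in shSlpi-2, shSlpi-1 and shRenilla, with a point per library and bars for the mean and SD over 2 libraries. Slpi, Tslp, Spp1 and Egr1 are lowest and Krt14, Itgb6, Cldn4 and Scd2 highest in shSlpi-2, with the shSlpi-1 mean between those of shSlpi-2 and shRenilla in each panel.

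Cholesterol and fatty acid synthesis moved together. Cells make these lipids through enzymes whose genes are switched on by SREBP transcription factors, which bind sterol regulatory elements in promoters. Of 38 tested genes 29 rose and 0 fell by limma at an adjusted p under 0.05, with a median log2 fold change of 0.34. Scd2, a desaturase of fatty acids, had 55663 and 51142 in shSlpi-2 against 32090 and 32669 in shRenilla (log2 fold change 0.72, SE 0.05, limma adjusted p = 1.68e-08). Mvd, an enzyme of the mevalonate pathway, had 285 and 274 in shSlpi-2 against 132 and 131 in shRenilla (1.08). Fads1, a fatty acid desaturase, rose by 0.58 and Cyp51, a sterol demethylase, by 0.61. Srebf2, which encodes a SREBP factor, rose by 0.46. The count was 26 when the spread came from the 4 compared libraries. It was 28 after adjustment for transcript GC content and length.

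Genes of the Atf4 program, which supplies amino acids and charged tRNAs under stress, rose in 21 of 44 cases and fell in 2, with a median of 0.22. Slc7a5, a transporter of large neutral amino acids, had 4741 and 5150 in shSlpi-2 against 3262 and 3167 in shRenilla (log2 fold change 0.62, limma adjusted p = 2.68e-07). Aars, the alanyl-tRNA synthetase, had 3068 and 2772 against 2143 and 1951 in shRenilla (0.51), and Nars (0.41) and Mthfd2 (0.44) rose with it. Asns, asparagine synthetase, had 1821 and 1915 in shSlpi-2 against 1452 and 1611 in shRenilla (0.29). Of 29 tested chaperones and enzymes of the endoplasmic reticulum, 16 rose and 3 fell, and 9 rose when the spread came from the 4 compared libraries. Calr, the chaperone calreticulin, had 6043 and 5625 in shSlpi-2 against 3980 and 4181 in shRenilla (0.51), and Dnajb11, a co-chaperone, had 3730 and 3347 against 2327 and 2272 in shRenilla (0.62). Ero1l, an oxidase that forms disulfides, went down to 7415 and 7009 in shSlpi-2, against 10461 and 10805 in shRenilla (-0.56). Creld2, a secreted stress protein, had 543 and 489 against 359 and 339 in shRenilla (0.56).

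Promoters of these 3 groups are shown because their members moved together and the pathways have well-known elements. Each line gives the 250 bases before the gene start from RefSeq on GRCm38.p6, 5′ to 3′ on the strand of the gene, with a match to the element in capitals, on either strand.
Hmgcs1, chr13:119690101-119690350, plus strand: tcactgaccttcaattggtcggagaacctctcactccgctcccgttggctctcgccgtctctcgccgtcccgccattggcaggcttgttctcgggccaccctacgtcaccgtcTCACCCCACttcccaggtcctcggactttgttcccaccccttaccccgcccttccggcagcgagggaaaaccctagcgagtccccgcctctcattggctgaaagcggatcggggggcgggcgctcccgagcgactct
Aars, chr8:111033592-111033841, plus strand: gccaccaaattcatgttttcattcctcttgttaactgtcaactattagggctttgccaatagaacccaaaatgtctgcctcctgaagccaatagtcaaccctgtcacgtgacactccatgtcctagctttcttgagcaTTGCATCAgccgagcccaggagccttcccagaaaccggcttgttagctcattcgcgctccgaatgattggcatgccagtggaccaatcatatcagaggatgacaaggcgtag
Asns, chr6:7693210-7693459, minus strand: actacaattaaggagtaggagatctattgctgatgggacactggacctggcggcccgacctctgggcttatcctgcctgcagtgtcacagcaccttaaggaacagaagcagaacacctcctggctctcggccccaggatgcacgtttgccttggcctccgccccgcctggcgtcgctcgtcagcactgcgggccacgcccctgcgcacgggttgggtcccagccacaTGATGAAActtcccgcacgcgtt
Calr, chr8:84846932-84847181, minus strand: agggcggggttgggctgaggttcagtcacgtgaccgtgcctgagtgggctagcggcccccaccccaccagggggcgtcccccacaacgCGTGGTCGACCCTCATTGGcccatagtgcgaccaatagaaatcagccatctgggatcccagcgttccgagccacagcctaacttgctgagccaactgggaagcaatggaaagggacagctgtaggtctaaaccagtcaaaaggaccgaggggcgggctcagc
Creld2, chr15:88819396-88819645, plus strand: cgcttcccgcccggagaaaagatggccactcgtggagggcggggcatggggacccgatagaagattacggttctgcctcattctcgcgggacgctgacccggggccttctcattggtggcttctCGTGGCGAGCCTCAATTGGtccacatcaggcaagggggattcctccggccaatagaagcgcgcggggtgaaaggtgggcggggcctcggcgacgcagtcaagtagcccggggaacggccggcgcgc
The sterol regulatory element was searched as TCACNCCAC on both strands. It was in the window of 1 of 30 lipid synthesis genes with a promoter in the table, Hmgcs1, and in 1.22% of all 27025 genes. Hmgcs1, which makes the precursor of mevalonate, had 2912 and 2827 normalized reads in shSlpi-2 against 2097 and 2161 in shRenilla (log2 fold change 0.43). The C/EBP-ATF response element, TGATGNAA, was in 11 of 38 Atf4 program genes and in 3.91% of all genes. Of those 11 genes, 4 rose, Aars, Asns, Chac1 and Nupr1, while 16 of all 38 rose. Fgf21 and Vldlr, among the 11, were too low to be tested. The ER stress response element, CCAAT and CCACG with 9 bases between them, was searched on both strands. It was in 9 of 23 chaperone genes and in 0.130% of all genes. Of the 9 genes 6 rose, while 13 of all 23 rose, and Derl3, among the 9, was too low to be tested. These are matches of letters in a short window and say nothing about binding.

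**Figure D4:**
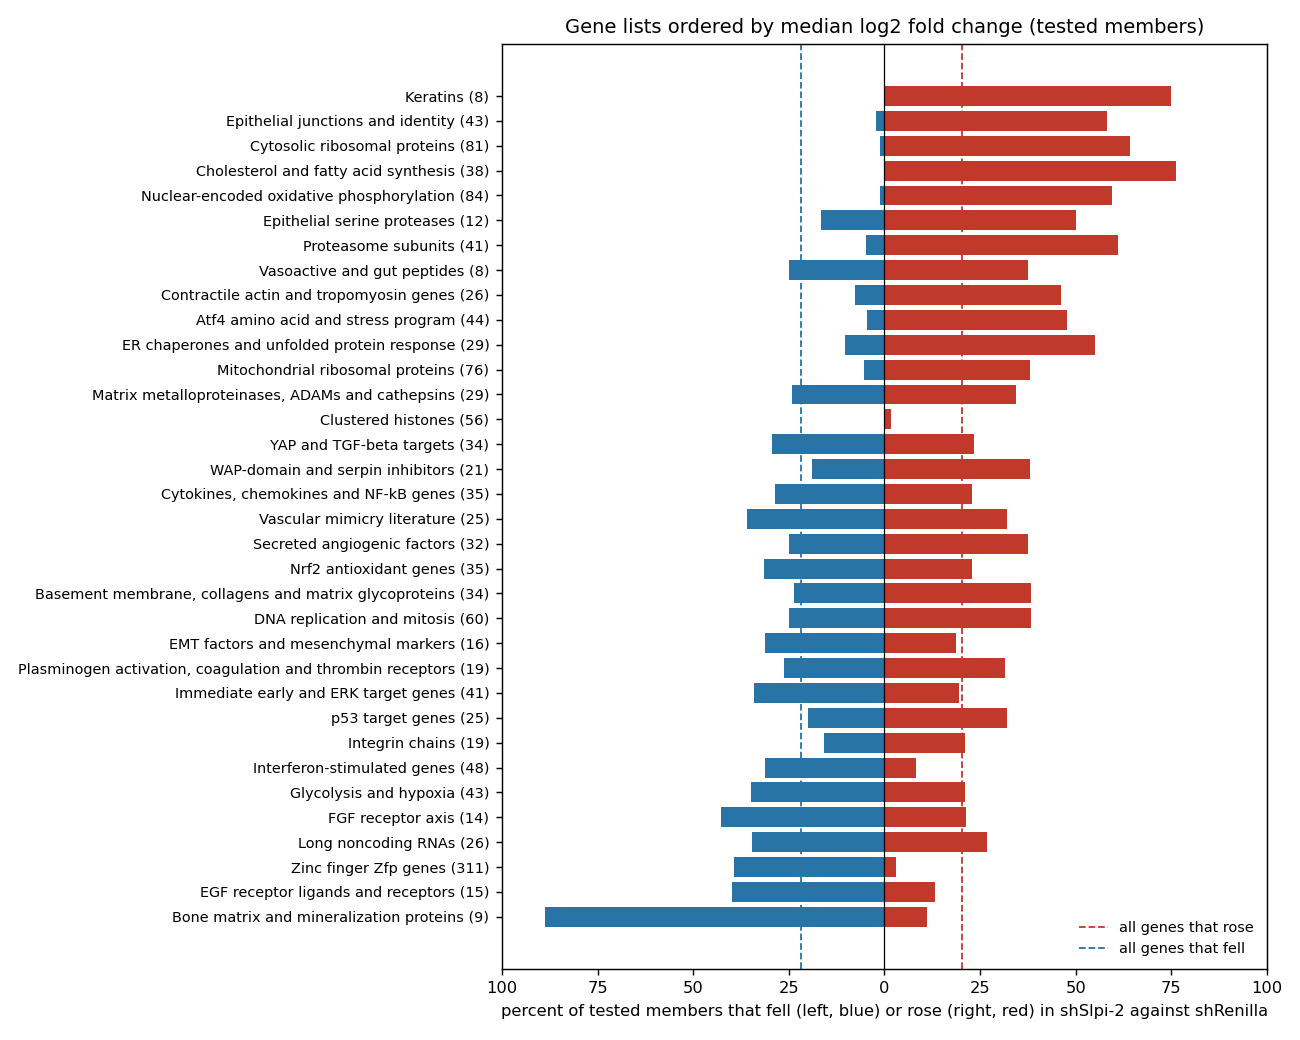
Percent of tested members of each gene list that fell (left, blue) or rose (right, red) in shSlpi-2 against shRenilla, lists ordered by median log2 fold change, with the number tested in brackets. Dashed lines mark the 21.9% of all genes that fell and the 20.4% that rose. Lipid synthesis reaches 29 of 38 on the right and bone matrix 8 of 9 on the left.

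Genes of basic cell machinery rose in large numbers. Of 81 tested cytosolic ribosomal proteins 52 rose and 1 fell, with a median of 0.37. Rpl8, of the large subunit, had 5335 and 6689 in shSlpi-2 against 3544 and 3635 in shRenilla (log2 fold change 0.73), and Rps14, of the small subunit, had 1693 and 1889 against 831 and 949.8 in shRenilla (1.01). Ribosomal protein genes have many processed copies in the genome, so reads could be shared between copies and single values are uncertain. Of 84 nuclear-encoded subunits of oxidative phosphorylation 50 rose and 1 fell, with a median of 0.33, and Ndufb5, of complex I, had 998 and 1079 in shSlpi-2 against 645 and 610.4 in shRenilla (0.72). Of 41 proteasome subunits 25 rose and 2 fell, with a median of 0.27, and Psmc1, of the regulatory cap, had 3321 and 3104 against 2142 and 2037 in shRenilla (0.62). Of 76 mitochondrial ribosomal proteins 29 rose and 4 fell. The size of these shifts differed between the shSlpi-2 libraries. The median of the cytosolic ribosomal proteins was 0.12 without library B and 0.62 without library A, with 35 and 67 members that rose and 8 and 1 that fell. That of oxidative phosphorylation was 0.20 without library B and 0.45 without library A (34 and 61 rose, 5 and 1 fell). The mitochondrial ribosomal proteins that rose were 19 without library B and 39 without library A, and those that fell were 9 and 1. Proteasome subunits that fell were 5 without library A and 1 without library B.

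Zinc finger genes named Zfp, most of which encode DNA-binding repressors, went the other way. Of 311 tested 122 fell and 9 rose, with a median of -0.22. Zfp781 had 379 and 374 normalized reads in shSlpi-2 against 727 and 808 in shRenilla (log2 fold change -1.02, limma adjusted p = 7.64e-08), and Zfp386 had 1381 and 1364 against 2196 and 2210 in shRenilla (-0.68). Members of this family share sequence, so that reads could be shared among them. Base composition and transcript length ran with the fold change over all genes. The median log2 fold change was -0.18 in the fifth of genes with the lowest transcript GC content, 29.6% to 43.8%, and 0.14 in the fifth with the highest, 55.4% to 70.0%. It was 0.13 in the fifth with the shortest transcripts and -0.07 in the fifth with the longest. Library B minus library A of shSlpi-2 showed a like order, with medians of -0.07 and 0.11 at the lowest and highest GC content and 0.12 and -0.05 at the shortest and longest transcripts. After adjustment for both properties, 78 of 305 Zfp genes fell and 13 rose, and 43 of 81 cytosolic ribosomal proteins rose and 7 fell. The part of GC content and length in these lists was not tested beyond that adjustment.

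Of 9 tested bone matrix and mineralization genes 8 fell and 1 rose, with a median of -0.82. These genes are known from bone and dentin and are also expressed by some breast carcinoma cells. Spp1, osteopontin, a secreted phosphoprotein that binds integrins, had 7154 and 7443 in shSlpi-2 against 23343 and 25627 in shRenilla (log2 fold change -1.74, SE 0.05, limma adjusted p = 3.59e-13). Phex, a membrane endopeptidase of phosphate balance, had 481 and 579 against 1530 and 1593 in shRenilla (-1.56). Dmp1, a mineralization protein of the same family as osteopontin, had 22.2 and 26.5 in shSlpi-2 against 113 and 127 in shRenilla (-2.25). Mgp, an inhibitor of calcification, had 17.4 and 36.9 against 114 and 118 in shRenilla (-2.14), and its 2 shSlpi-2 values differed by more than those of shRenilla. Ank, a pyrophosphate transporter, had 6097 and 6432 against 10319 and 10171 in shRenilla (-0.71). Bmp7, a bone morphogenetic protein, had 573 and 730.0 against 1165 and 1121 in shRenilla (-0.82), and Alpl, alkaline phosphatase, had 74.4 and 80.5 against 116 and 130.02 in shRenilla (-0.66). Enpp1, which makes pyrophosphate, was the member that rose. The 8 members fell in all 7 alternatives run on the list.

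Growth factor genes moved in both directions. Among 15 ligands, receptors and inhibitors of the EGF receptor family, 6 fell and 2 rose, with a median of -0.33. Tgfa, a ligand of the EGF receptor, had 1558 and 1572 in shSlpi-2 against 3741 and 3676 in shRenilla (log2 fold change -1.24, SE 0.05, limma adjusted p = 2.04e-11). Btc, betacellulin, had 74.4 and 70.1 against 161 and 166 in shRenilla (-1.17), and Areg, amphiregulin, had 603 and 683 against 839.7 and 838 in shRenilla (-0.39). The receptor Egfr had 105 and 84.3 against 142 and 158 in shRenilla (-0.66), while Erbb3, a related receptor without strong kinase activity, had 102 and 103 against 47.4 and 51.8 in shRenilla (1.04). In the FGF axis 6 of 14 tested genes fell and 3 rose. Fgfr1, a receptor, had 104 and 115 in shSlpi-2 against 327 and 355 in shRenilla (-1.63), and Flrt3, a membrane partner of FGF receptors, had 749 and 841 against 1405 and 1502 in shRenilla (-0.87). Fgfbp1, which frees FGFs from the matrix, had 2733 and 2930 against 1425 and 1436 in shRenilla (0.98).

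Of 41 immediate early and ERK target genes, 14 fell and 8 rose. Egr2 and Egr3, relatives of Egr1, were low in shSlpi-2 too. Egr2 had 31.9 and 35.0 in shSlpi-2 against 93.8 and 97.0 in shRenilla (log2 fold change -1.48), and Egr3 had 7.73 and 9.47 against 28.4 and 36.4 in shRenilla (-1.79). Dusp6, a phosphatase that turns ERK off and is itself induced by ERK, had 992 and 1030 against 1720 and 1629 in shRenilla (-0.73), and Spred1, an inhibitor of the same pathway, fell by 0.57 on the log2 scale. Not all such genes moved this way. Jund, an AP-1 factor, had 361 and 459 in shSlpi-2 against 219 and 228 in shRenilla (0.86), and Cyr61, a matricellular protein induced by serum and YAP, had 7177 and 7219 against 4222 and 4153 in shRenilla (0.78). Ctgf, another YAP target, had 1569 and 1708 against 846 and 874 in shRenilla (0.93), whereas Wwtr1, the YAP partner TAZ, fell by 0.68 on the log2 scale, so that 8 of 34 YAP and TGF-beta genes rose and 10 fell (5 rose after GC and length adjustment, and 6 fell in the fit of the 4 compared libraries). Bhlhe40, a transcription factor, rose by 0.76.

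Cytokine and interferon genes were mixed or lower. Of 35 cytokines, chemokines and NF-kB genes 10 fell and 8 rose. Ccl2, a monocyte chemoattractant, had 146 and 221 in shSlpi-2 against 412 and 431 in shRenilla (log2 fold change -1.23), while Cxcl16, a membrane-bound chemokine, rose by 0.73 and Tnfaip2 fell by 0.60. Lcn2, lipocalin-2, a siderophore-binding protein of neutrophils and inflamed epithelium, had 0.967 and 4.73 normalized reads in shSlpi-2 against 56.9 and 54.0 in shRenilla (-4.07, SE 0.46, limma adjusted p = 3.87e-06). The shSlpi-2 values amount to few reads, so the fitted fold depends on the count added before taking logs. Il33, an alarmin cytokine, had 5.80 and 10.4 against 36.9 and 36.4 in shRenilla (-2.09). Of 48 interferon-stimulated genes 15 fell and 4 rose, and 9 fell and 3 rose in the fit of the 4 compared libraries (10 fell without shSlpi-2 library A). Ifi203, a DNA-sensor family gene, had 2093 and 2089 in shSlpi-2 against 3452 and 3482 in shRenilla (-0.73), and Nlrc5, an activator of MHC class I genes, had 367 and 378 against 583 and 571 in shRenilla (-0.63). The MHC class I genes H2-K1 (0.49) and H2-D1 (0.45) rose, though these 2 are similar in sequence and could share reads.

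Proteases and their inhibitors moved in both directions. Of 21 tested WAP-domain and serpin inhibitors 8 rose and 4 fell (6 fell without shSlpi-2 library B). Besides Slpi and Serpine2, Reck, a membrane inhibitor of metalloproteinases, had 134 and 153 in shSlpi-2 against 348 and 333 in shRenilla (log2 fold change -1.24), and Serpinb9, which blocks granzyme B, had 122 and 132 against 261 and 289.8 in shRenilla (-1.11). Serpinh1, a collagen chaperone of the serpin family, had 1778 and 2113 in shSlpi-2 against 1197 and 1155 in shRenilla (0.72), and Serpinb5, maspin, had 253 and 253 against 162 and 131 in shRenilla (0.79). Of 29 metalloproteinases, ADAMs and cathepsins 10 rose and 7 fell. Adam12, a membrane metalloproteinase, had 3277 and 3489 in shSlpi-2 against 1550 and 1577 in shRenilla (1.11, SE 0.05, limma adjusted p = 4.39e-10), and Mmp3, stromelysin-1, had 319.9 and 313 against 787 and 844 in shRenilla (-1.36). Ctsz, a lysosomal cathepsin, and Adamts1 rose by 0.76 and 0.69. Of 12 epithelial serine proteases and partners 6 rose and 2 fell, Prss23 among those that rose (0.75), and 1 fell in the fit of the 4 compared libraries and without shSlpi-2 library A. In the plasminogen and coagulation list 6 of 19 rose and 5 fell (4 rose without shSlpi-2 library B). Plat, tissue plasminogen activator, had 61.9 and 75.8 in shSlpi-2 against 155 and 142 in shRenilla (-1.10), and Procr, the endothelial protein C receptor, had 2828 and 2763 against 1704 and 1796 in shRenilla (0.68).

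Of 34 genes of basement membrane, collagens and matrix glycoproteins 13 rose and 8 fell. Lamb3, a laminin chain of epithelial basement membrane, had 1587 and 1566 in shSlpi-2 against 870.2 and 833 in shRenilla (log2 fold change 0.89). Fbln2, a fibulin, had 7027 and 6640 against 4228 and 3902 in shRenilla (0.75), and Col6a1, a collagen VI chain, had 325 and 284 against 565 and 569.7 in shRenilla (-0.90). Of 19 integrin chains 4 rose and 3 fell (5 fell after GC and length adjustment). Itga1, a collagen receptor chain, had 159 and 134 in shSlpi-2 against 363 and 382 in shRenilla (-1.35), Itga8 fell by 0.71 on the log2 scale, and Itgb1 rose by 0.47.

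Vascular mimicry, the forming of perfused channels by tumour cells, is a subject of the series. Its list was drawn from literature and holds Slpi and Serpine2 themselves. Of 25 tested genes 8 rose and 9 fell, with a median log2 fold change of 0.03. Vegfa, the endothelial growth factor, had 506 and 514 in shSlpi-2 against 827 and 782 in shRenilla (log2 fold change -0.66). Of 32 secreted angiogenic factors 12 rose and 8 fell, with a median of 0.02. Angpt1 and Tgfa, given above, were among those that fell and do not describe the list as a whole. Of 8 tested vasoactive and gut peptides and their enzymes 3 rose and 2 fell. Edn1, endothelin-1, had 79.3 and 74.8 in shSlpi-2 against 28.4 and 38.6 in shRenilla (1.19), and Ece1, which activates it, rose by 0.34.

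Of 43 tested hypoxia genes and glycolytic enzymes, 15 fell and 9 rose. Car9, a carbonic anhydrase induced by HIF-1, had 1288 and 1374 in shSlpi-2 against 2921 and 2842 in shRenilla (log2 fold change -1.11, limma adjusted p = 1.15e-09), and Egln3, a HIF prolyl hydroxylase, had 1645 and 1526 against 3050 and 3124 in shRenilla (-0.96). Bnip3l, a mitophagy receptor, fell by 0.55 on the log2 scale. Pgam1, a glycolytic mutase, had 13159 and 11899 in shSlpi-2 against 8113 and 8255 in shRenilla (0.61). Of 35 antioxidant genes of the Nrf2 list 11 fell and 8 rose. Gsta4, a glutathione transferase, had 644 and 597 against 1375 and 1283 in shRenilla (-1.10), and Nfe2l2, which encodes Nrf2, had 3465 and 3936 against 5266 and 5677 in shRenilla (-0.57). Gclm (-0.54) and Cat (-0.69) fell as well.

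Cell cycle genes gave no common direction. Of 60 genes of DNA replication and mitosis 23 rose and 15 fell, with a median of 0.00, and 7 fell in the fit of the 4 compared libraries and 6 after GC and length adjustment. Cdca8 (0.59), Birc5 (0.56) and Fen1 (0.65) rose and Nusap1 (-0.35) fell. Of 25 p53 target genes 8 rose and 5 fell, with 4 that rose in the fit of the 4 compared libraries and 5 without shSlpi-2 library B. Bax, which permeabilises mitochondria, had 351 and 431 in shSlpi-2 against 233 and 240.2 in shRenilla (0.71), Ei24 (0.49) and Perp (0.35) rose, and Mdm2, the ligase of p53, fell by 0.44 on the log2 scale. Of 56 clustered histone genes 1 rose, Hist1h2ak (0.37), and 0 fell by limma at an adjusted p under 0.05, but 15 rose without shSlpi-2 library A and 6 fell without library B. After GC and length adjustment 8 fell and the median was -0.15, against 0.04 before it. These genes are near-identical copies and their messages carry no poly(A) tail. Of 26 long noncoding RNAs 9 fell and 7 rose, with Kcnq1ot1 at 4119 and 3962 in shSlpi-2 against 6615 and 7282 in shRenilla (-0.78), Tug1 lower by -0.40 and Snhg5 higher by 0.40. Meg3, an imprinted RNA, had 48.3 and 52.1 in shSlpi-2 against 1.05 and 3.31 in shRenilla (4.11, SE 0.53), values at or under the 3-read limit in shRenilla, so that the fitted fold is loose.

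Against the first hairpin, shSlpi-2 differed in 3204 genes, with 1517 higher and 1687 lower in shSlpi-2, which is 12.3% and 13.7% of genes tested. In the fit of the 4 compared libraries 577 were higher and 675 lower, and without shSlpi-1 library B 708 were higher and 831 lower. Both hairpins are read against the same shRenilla libraries, so their fold changes are not independent. shSlpi-1 changed 2156 genes against shRenilla, 941 up and 1215 down, which is 7.65% and 9.88% of genes tested. The shSlpi-2 line was chosen as the one with the most changed genes, so its larger count is not a separate result. Krt14 was 0.69 higher in shSlpi-2 than in shSlpi-1 on the log2 scale (limma adjusted p = 4.89e-04), with log2 fold changes over shRenilla of 2.10 in shSlpi-2 and 1.41 in shSlpi-1. Tslp was lower by -1.08 in shSlpi-2 than in shSlpi-1 (limma adjusted p = 1.99e-06), Egr1 by -1.22 and Spp1 by -0.64. For Ace the fold changes were -2.60 in shSlpi-2 and -2.54 in shSlpi-1, with a difference of -0.06 (limma adjusted p = 0.911), and for Cck they were -2.26 in shSlpi-2 and -2.002 in shSlpi-1, with a difference of -0.26 (limma adjusted p = 0.258). Fgfbp1 stood at 0.98 over shRenilla in both lines.

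Some genes moved in opposite directions in the 2 lines. Mmp9, the gelatinase that cleaves basement membrane collagen, had 619.6 and 548 normalized reads in shSlpi-2, 197 and 232 in shSlpi-1, and 335 and 329 in shRenilla. It was 0.81 higher in shSlpi-2 and fell by 0.64 in shSlpi-1 against shRenilla, and the lines differed by 1.44 (limma adjusted p = 1.82e-07). Dmd, dystrophin, had 95.7 and 93.7 in shSlpi-2, 33.3 and 39.5 in shSlpi-1, and 55.8 and 66.1 in shRenilla (difference between the lines 1.36, limma adjusted p = 1.60e-04), and its rise over shRenilla in shSlpi-2 (0.63) did not pass without shRenilla library A or without shSlpi-2 library A. Fendrr, a long noncoding RNA, had 84.1 and 95.6 in shSlpi-2, 234 and 248 in shSlpi-1, and 151 and 138 in shRenilla (difference -1.41). Others moved with shSlpi-2, while the fold change of shSlpi-1 did not pass the threshold. Timm8a1 was 1.43 higher in shSlpi-2 than in shSlpi-1, which had 716 and 520.2 normalized reads. Map1a, a microtubule protein, had 45.4 and 51.1 in shSlpi-2, 118 and 147 in shSlpi-1, and 137 and 137 in shRenilla (difference -1.43). Aqp1, a water channel, had 34.8 and 55.9 in shSlpi-2, 132 and 104 in shSlpi-1, and 122 and 116 in shRenilla (difference -1.39). Shcbp1l (-1.44) and Slmo1 (-1.25) were also lower in shSlpi-2 than in shSlpi-1, and the fall of Slmo1 against shRenilla did not pass in the fit of the 4 compared libraries, without shSlpi-2 library A (-0.38) or without either shRenilla library (-0.75 without A, -0.60 without B). Muc4 rose over shRenilla in shSlpi-1 too, by 2.58 (limma adjusted p = 9.06e-04), with 52.4 and 32.3 normalized reads. It was 1.42 higher in shSlpi-2 than in shSlpi-1 (limma adjusted p = 0.0263), and this difference did not pass without shSlpi-1 library B (1.08, limma adjusted p = 0.215).

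**Figure D5:**
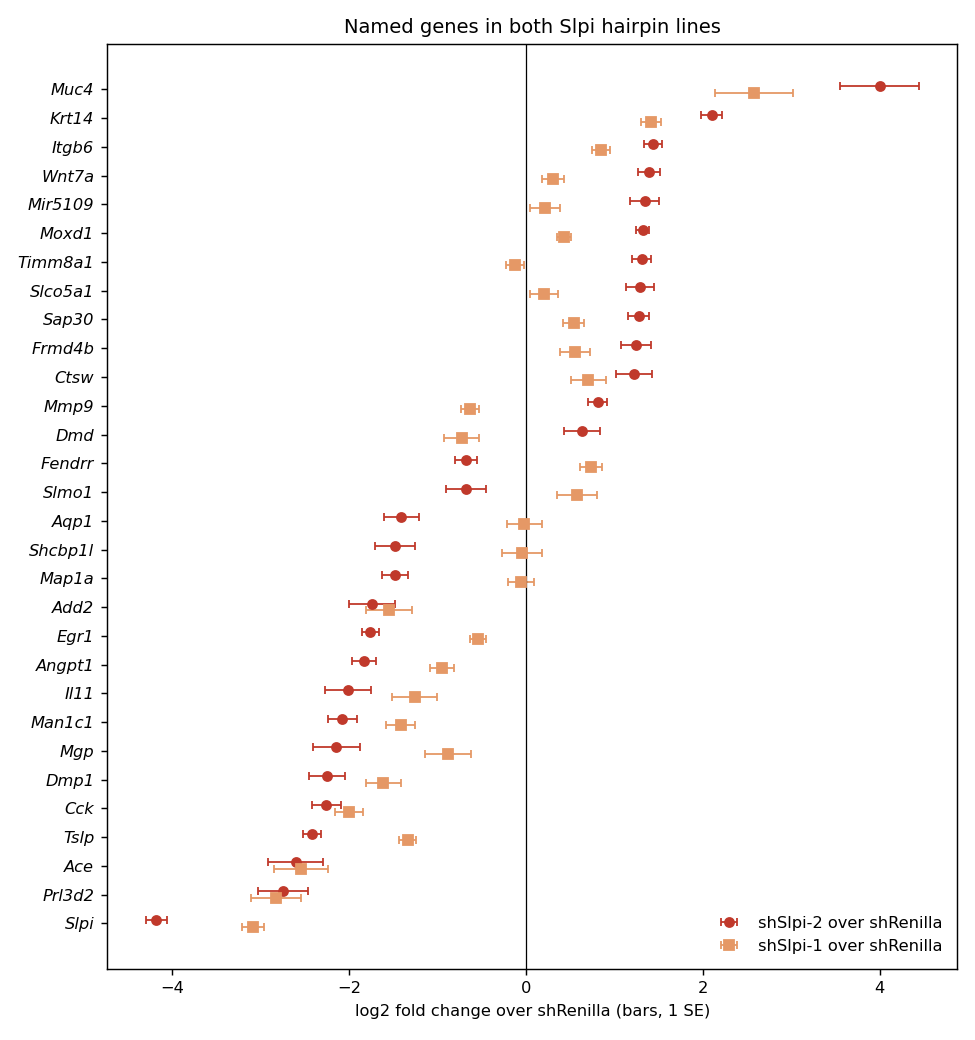
Log2 fold change over shRenilla (x axis, bars of 1 SE) of the genes named for their size of change or their difference between lines, in shSlpi-2 (circles) and shSlpi-1 (squares). Mmp9 is at 0.81 in shSlpi-2 and -0.64 in shSlpi-1, while Ace lies at -2.60 and -2.54.

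Gene lists were read in both lines against the same controls, with 7.65% of all genes up and 9.88% down in shSlpi-1. Between the lines, 12.3% of all genes were higher and 13.7% lower in shSlpi-2 than in shSlpi-1. In shSlpi-1, 23 of 38 lipid genes rose and 0 fell by limma at an adjusted p under 0.05 (median 0.21, against 0.34 in shSlpi-2), and 15 of 43 epithelial genes rose and 3 fell (median 0.29, against 0.50 in shSlpi-2). Of the 43 epithelial genes 13 were higher in shSlpi-2 than in shSlpi-1 and 0 lower. Clustered histones had a median of 0.04 in shSlpi-2 and -0.44 in shSlpi-1, with 36 of 56 higher in shSlpi-2. Their summed level was uneven between libraries A and B, at 28837 and 38649 in shSlpi-2 and 26207 and 21673 in shSlpi-1. The median in shSlpi-2 was -0.18 without library B and 0.29 without library A. Bone matrix genes had a median of -0.82 in shSlpi-2 and -0.75 in shSlpi-1, with 6 of 9 lower in shSlpi-2. Of 43 hypoxia and glycolysis genes 17 were lower in shSlpi-2 than in shSlpi-1 and 6 higher, and of 84 oxidative phosphorylation genes 26 were higher and 0 lower.

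Markers of other cell types were mostly low, with Flt1 and Pdgfra among the exceptions. In bulk RNA, fewer cells of a type and less RNA per cell cannot be told apart. The 18 endothelial markers summed to 998 to 1031 normalized reads in shSlpi-2 and 975 to 1080 in shRenilla, of which Flt1 alone gave 804 and 784 in shSlpi-2 and 882 and 966 in shRenilla. Pecam1 had 9.67 and 31.2 in shSlpi-2 against 4.21 and 4.41 in shRenilla, and Cdh5 had 12.6 and 16.1 against 1.05 and 4.41 in shRenilla. Of 20 leukocyte markers, which summed to 311 to 388 in shSlpi-2 and 274 to 283 in shRenilla, Ptprc had 6.77 and 5.68 in shSlpi-2 against 2.11 and 1.10 in shRenilla. In the shRenilla libraries 18 and 17 of the 20 had 3 or fewer reads, so few members gave most of that sum. The 32 neuronal and germ-line genes summed to 723 to 758 in shSlpi-2 and 728 to 736 in shRenilla. Of these, 26 had 3 or fewer reads in each shRenilla library, against 16 and 12 in shSlpi-2. The 14 fibroblast markers summed to 538 to 682 in shSlpi-2 and 905 to 934 in shRenilla, mostly Pdgfra, and Lum was listed at 0 in both shRenilla libraries. The lower sum does not describe the list as a whole. Of its 2 tested members 1 rose and 1 fell, with a median log2 fold change of 0.72. The erythroid markers summed to 79.5 to 99.6 in shSlpi-2 and 75.9 to 98.1 in shRenilla, and Hba-a1 and Hbb-b1 were listed at 0 in all 4 libraries. Several defining markers had a few reads in shSlpi-2 and fewer in shRenilla, as did the olfactory receptors.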

How the data were processed

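RNA of 10 libraries of clone 4T1-T was sequenced as 76 bp reads after amplification from 100 ng of total RNA. The deposited table holds log2 values on a variance-stabilised scale that the authors made from size-factor normalized read counts per gene. Its transformation is not stated and was read from the values, which share a floor of 6.733366499 for 0 reads. Per the submitters' processing notes, Bowtie2 and HTSeq were used with build mm10, while their versions, the annotation and the strand setting were not given in the sources used here. The scale was inverted to normalized counts, which were whole multiples of 1 read within 0.01 reads. Of 23479 entries, 1238 had no read in any library and 27 carry names turned into dates.

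Genes with a mean of at least 10 were tested with limma 3.58.1 (R 4.3.3) on log2(normalized count + 1), with 5 group means over 10 libraries, a trended prior variance and Benjamini-Hochberg adjustment over 12299 genes. The procedure was tested on simulated data in which all groups had the same spread. In the real data the shSlpi-2 libraries differed more from each other than any other pair. The simulation therefore cannot show how the fit behaves under that wider scatter. Depth was 15877431 to 24026620 reads a library, and a count of 0 allows up to 3 reads, for counting error only. Named genes are Slpi, Serpine2, the 12 largest rises and 12 largest falls that passed in this fit and in that of the 4 compared libraries with a mean of at least 50 and groups that do not overlap, 5 differences between the Slpi lines in each direction by the same criteria, and up to 4 called members of each list. The part of the series, the gene lists and the tests were chosen with earlier results of these data known. The shSlpi-2 line was taken for having the lowest Slpi and the most changed genes. Transcript GC content and length came from GENCODE M21 on GRCm38, which matched 21845 symbols once, and promoters came from RefSeq on GRCm38.p6. Alternatives were other normalizations, filters, pseudocounts and weights, removal of a uniform read background, adjustment for GC content and length, and leaving out each library. Libraries with the same letter did not deviate together, with correlations of -0.073 to 0.072, so letters were not used to pair samples.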

Additional observations from a re-analysis of the deposited data

Results flagged for a closer look

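The following genes differed between shSlpi-2 and shSlpi-1 by a direct limma test, given as the log2 difference of shSlpi-2 minus shSlpi-1. Lars2, whose reads moved with those of Rn45s, was higher in shSlpi-2 by 2.449. Among other genes that were higher in shSlpi-2, Mmp9 differed by 1.444, Timm8a1 by 1.433, Muc4 by 1.422 and Dmd by 1.361. Mir5109 differed by 1.127, Wnt7a by 1.086 and Slco5a1 by 1.08. Moxd1 differed by 0.891, Sap30 by 0.7347, Frmd4b by 0.6943, Krt14 by 0.6874, Itgb6 by 0.5888 and Serpine2 by 0.295. Among genes that were lower in shSlpi-2, the difference was -1.435 for Shcbp1l, -1.43 for Map1a, -1.414 for Fendrr, -1.39 for Aqp1, -1.265 for Mgp, -1.252 for Slmo1, -1.217 for Egr1, -1.092 for Slpi and -1.078 for Tslp. It was -0.8835 for Angpt1, -0.751 for Il11, -0.6597 for Man1c1 and -0.6402 for Dmp1. Low Slpi was a reason for choosing shSlpi-2, so the difference in Slpi is not a separate result. In the fit of the 4 compared libraries Il11 (limma adjusted p = 0.182), Dmp1 (limma adjusted p = 0.149) and Man1c1 (limma adjusted p = 0.0845) did not pass. Muc4 did not pass without shSlpi-1 library B (limma adjusted p = 0.215).

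Signal outside the main measurement was high in shSlpi-2. Olfactory, vomeronasal and taste receptor genes summed to 1618 and 1854 normalized reads in shSlpi-2, against 532 and 534 in shRenilla. They summed to 908 and 821 in shSlpi-1, 819 and 808 in shSerpine2-1, and 315 and 310 in shSerpine2-2. Rn45s took 6.88% and 6.91% of reads in shSlpi-2, against 1.00% and 1.21% in shRenilla.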

How the results depend on the processing

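The fall of Slpi passed in all alternatives run, with log2 fold changes of -4.36 to -4.03 on scales that start from counts and -2.65 on the deposited scale, which compresses low values. Without a filter on low counts 4862 genes rose in shSlpi-2 and 2492 fell, over 22241 genes. The count of genes that differ between shSlpi-2 and shSlpi-1, 3204, was 2058 with 1 weight per group (1002 higher, 1056 lower) and 1252 in the 4 compared libraries (577 higher, 675 lower). With 1 library left out it was 1539 to 3942, with 708 to 1929 higher and 831 to 2013 lower, and the lowest values came without shSlpi-1 library B. Scaling to the library total without Rn45s and Lars2 gave 1338 higher and 1906 lower. The causes were not tested. A replicate block on the letters, which do not pair the samples, gave 2511 genes that rose and 2664 that fell in shSlpi-2 against shRenilla, and 1515 higher and 1671 lower against shSlpi-1. With 1 library left out, 3779 to 5509 genes changed against shRenilla; the lone library of that group is then assumed to vary like the other groups. Of 186 named genes other than Slpi, 13 lost the call under at least 1 alternative, among them Dmd, Slmo1, Hspa5, Fgf7, Oas1b and Flt1, and 0 changed sign. Of the 24 genes named for the size of their change 0 lost it. They were chosen for large folds that passed in the fits over 10 libraries and over the 4 compared libraries. That count is therefore no separate check.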
